A study of Mus musculus with 6 samples.

Results

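Cytosolic ribosomal proteins were followed through 101 of the 45037 probe sets tested, chosen because the platform annotation gives each of them 1 gene symbol of the Rps or Rpl series. They stand for 46 of the 18193 genes with such a probe set, 22 of the small subunit with 55 probe sets and 24 of the large subunit with 46. Where a gene had several, the one that was brightest on average over the 6 arrays gave its value. Cerebellum was compared between 3 wild-type mice and 3 transgenic mice carrying daDREAM, a form of the transcriptional repressor DREAM that represses irrespective of calcium. The labels call the samples independent biological replicates and give no age, sex or treatment. Neither the promoter that drives the transgene, nor the cells it reaches, nor the number of founder lines is stated in the labels. Levels are RMA values in log2 units, so a difference of 1 is a factor of 2, and every difference is daDREAM minus wild type.

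The cytosolic ribosome is built from ribosomal RNA and a fixed set of proteins, which the cell needs in matched amounts. The small subunit decodes the mRNA and the large subunit joins the amino acids. Most mRNAs of ribosomal proteins begin with a terminal oligopyrimidine tract, through which mTOR signalling sets their translation, and many of their promoters carry sites for ETS-family factors. In neurons these mRNAs also lie in dendrites and axons, where they serve local protein synthesis. DREAM binds a short DNA element with the core GTCA, often downstream of the transcription start.

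No ribosomal protein gene passed the test, and the differences were small. Of the 45037 probe sets 0 (0% of those tested) had a limma adjusted p under 0.05, so 0 of the 101 ribosomal protein probe sets did, and the lowest adjusted p among them was 0.998. At an unadjusted p under 0.05 there were 817 probe sets in all (1.81%). Among the ribosomal protein probe sets 2 were higher at that level, 1.98% against a background of 1.11%, and 1 was lower, 0.99% against 0.706%. The median absolute difference was 0.07 over the 46 genes and 0.10 over all 18193 genes. These sets differ in level: 32 of the 46 genes were at the high level defined below, against 1260 of the 45037 probe sets. At the high, middle and low levels the median absolute difference was 0.06, 0.08 and 0.12 over ribosomal protein probe sets. Over all probe sets at those levels it was 0.08, 0.11 and 0.10, so at the low level the ribosomal protein value was the larger. For 39 of the 46 genes the whole 95% interval of the difference lay within 0.5 log2 units of 0, a factor of 1.41. It did so for 60.2% of all genes, a share that is not matched for level. The other 7 of the 46 were Rpl12, Rpl14, Rpl27a, Rpl37, Rpl3l, Rps4l and Rps6, all with a mean level below 8.

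**Figure D1:**
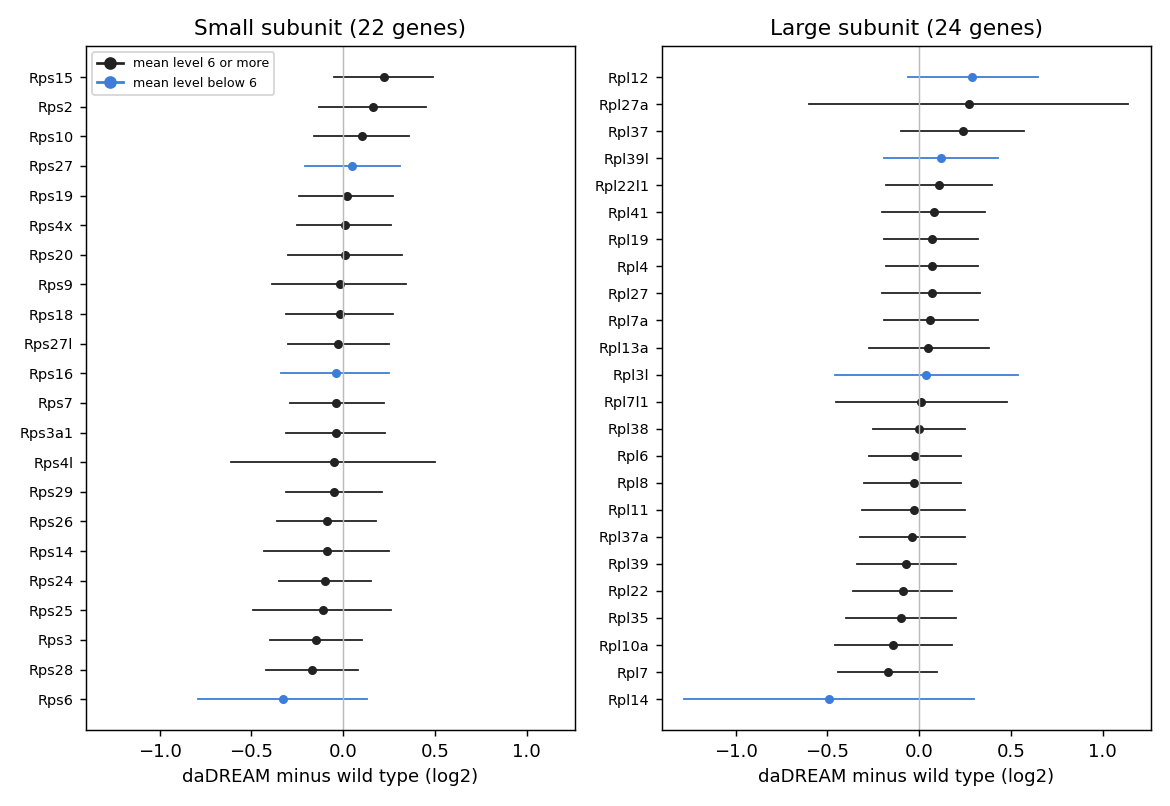
Difference between genotypes (daDREAM minus wild type, log2) of the 22 small-subunit and 24 large-subunit genes at the brightest probe set. Points are differences of means of 3 arrays and bars are 95% intervals from limma; every bar crosses 0, and blue marks the 7 genes with a mean level below 6.

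The promoters of 5 genes are shown for what they have in common and how they differ. Rps15, Rps28 and Rps3 are shown because their arrays did not overlap between genotypes at the brightest probe set. Rps6 is shown because it had the largest small-subunit difference at the brightest probe set, and Rpl38 because its level was almost constant. RefSeq promoter windows, from 250 bases before to 50 after the annotated start on GRCm38.p6, were found for 40 of the 46 genes, with 48 windows. Rpl7, whose arrays did not overlap either, had no such window. Each line gives 120 bases before the start and 30 after it, 5′ to 3′ on the gene's strand. Capitals mark the letters GTCA or TGAC, the core of the DREAM element on either strand, and CGGAAG or CTTCCG, the core bound by ETS factors on either strand.
Rps15, chr10:80292311-80292460, plus strand: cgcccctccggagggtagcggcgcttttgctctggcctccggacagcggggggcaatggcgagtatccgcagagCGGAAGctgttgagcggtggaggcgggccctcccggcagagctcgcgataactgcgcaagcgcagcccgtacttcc
Rps28, chr17:33824533-33824682, minus strand: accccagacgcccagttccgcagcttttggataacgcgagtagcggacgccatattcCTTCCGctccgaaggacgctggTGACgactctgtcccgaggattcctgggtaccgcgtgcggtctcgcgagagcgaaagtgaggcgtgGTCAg
Rps3, chr7:99483680-99483829, minus strand: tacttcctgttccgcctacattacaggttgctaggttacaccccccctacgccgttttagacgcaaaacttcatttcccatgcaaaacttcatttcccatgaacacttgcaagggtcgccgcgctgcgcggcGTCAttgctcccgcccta
Rpl38, chr11:114668460-114668609, plus strand: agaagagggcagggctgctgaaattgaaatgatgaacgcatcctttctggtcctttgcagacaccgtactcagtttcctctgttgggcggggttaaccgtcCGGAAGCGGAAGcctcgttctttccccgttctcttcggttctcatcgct
Rps6, chr4:86857338-86857487, minus strand: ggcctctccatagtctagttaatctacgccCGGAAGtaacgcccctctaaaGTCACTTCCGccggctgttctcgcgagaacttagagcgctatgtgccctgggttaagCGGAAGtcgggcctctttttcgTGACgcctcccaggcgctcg

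In these stretches Rps15 and Rpl38 hold no GTCA or TGAC, Rps3 holds 1, and Rps28 and Rps6 hold 2 each. The 5 genes were chosen by their values, and the share over all windows was not counted for stretches of this length. A relation of these letters to the differences was not tested. The ETS core occurs 3 times in Rps6, 2 times in Rpl38, 1 time in Rps15 and Rps28, and 0 times in Rps3. The start of Rpl38 opens with a run of 8 pyrimidines and that of Rps6 with a run of 9. Over the full windows, GTCA or TGAC was present in 41 of 48 member windows (85.4%) and in 85.2% of all 32851 windows. Restricted to the 50 bases after the start it was present in 22.9% of member windows and 27.2% of all windows. The letters CGGAAG or CTTCCG were present in 60.4% of member windows and 16.9% of all windows. A run of at least 5 pyrimidines that opens with C stood exactly at the annotated start in 14.6% of member windows and 2.51% of all, and began within 10 bases of the start in 56.2% and 30.7%. Matches of letters are descriptions of the sequence, and several starts of 1 gene can share bases.

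Among the 22 small-subunit genes 7 were higher and 15 lower in daDREAM, with differences from -0.33 to 0.22 and a median of -0.04. Over all genes 51.2% were higher, and the median was 0.01. The share of small-subunit genes that were higher was 31.8% and depended on scaling: after each array was centred on its median it was 18.2%, with 44.0% over all genes. Among the 24 large-subunit genes 14 were higher and 10 lower, with differences from -0.49 to 0.29 and a median of 0.02. The subunits were not tested against each other, because their genes share the same arrays.

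Arrays did not overlap between genotypes in 4 of the 46 genes. In 1 gene (2.17%) all daDREAM arrays were above all wild-type arrays, where the background over all genes was 3.55%, and in 3 genes (6.52%) all were below, where the background was 2.04%. The gene on the higher side was Rps15, and those on the lower side were Rps28, Rps3 and Rpl7. The background is not matched for level, and these 4 genes had means from 10.97 to 11.72.

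Rps15 encodes a small-subunit protein near the decoding centre and was measured by a pair of probe sets. Probe set 1416089_at read 11.03, 11.12 and 10.96 in wild-type replicates 1 to 3 and 11.15, 11.33 and 11.29 in daDREAM replicates 1 to 3. All daDREAM arrays lay above the wild-type arrays, with replicate 1 only just above the highest of them. The means were 11.04 ± 0.08 and 11.26 ± 0.09 (SD, n = 3), a difference of 0.22 or 1.16-fold (95% interval -0.05 to 0.49, limma adjusted p = 0.998). Probe set 1416088_a_at read 10.97, 10.95 and 11.00 in wild type and 11.10, 11.39 and 11.41 in daDREAM. Again no array overlapped, and daDREAM replicate 1 was the closest to wild type. The difference there was 0.33 or 1.25-fold, with a 95% interval from 0.03 to 0.62 (limma unadjusted p = 0.0329, adjusted p = 0.998).

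Rps28 encodes a small protein of the mRNA exit region of the small subunit. Its brightest probe set, 1423763_x_at, read 11.78, 11.83 and 11.81 in wild type and 11.63, 11.69 and 11.59 in daDREAM. The wild-type arrays lay close together and all above the daDREAM arrays. The difference was -0.17 (95% interval -0.42 to 0.08, limma adjusted p = 0.998). The other probe sets of the gene differed by -0.07 and -0.09, and there the arrays overlapped.

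Rps3, a small-subunit protein at the mRNA entry that also acts in DNA repair, read 11.44, 11.49 and 11.46 in wild type and 11.36, 11.33 and 11.26 in daDREAM at probe set 1435151_a_at. The daDREAM arrays were all lower, by a mean of -0.15 (95% interval -0.40 to 0.10). Its other probe sets, 1455600_at and 1447563_at, had means of 5.74 and 4.61 over the 6 arrays and differed by 0.15 and -0.13. Their arrays overlapped, and the signs of the 3 probe sets disagree. With probe sets without the suffix letters x, s or a the value for the gene was 0.15, which is that of 1455600_at again.

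Rpl7, a large-subunit protein, read 10.97, 10.99 and 11.19 in wild type and 10.88, 10.92 and 10.85 in daDREAM at probe set 1415979_x_at. Wild-type replicate 3 was the highest array, and the other wild-type arrays lay just above daDREAM. The difference was -0.17 (95% interval -0.44 to 0.10), and -0.10 without wild-type replicate 3. The further probe sets of Rpl7 differed by -0.04 and 0.00 and overlapped.

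**Figure D2:**
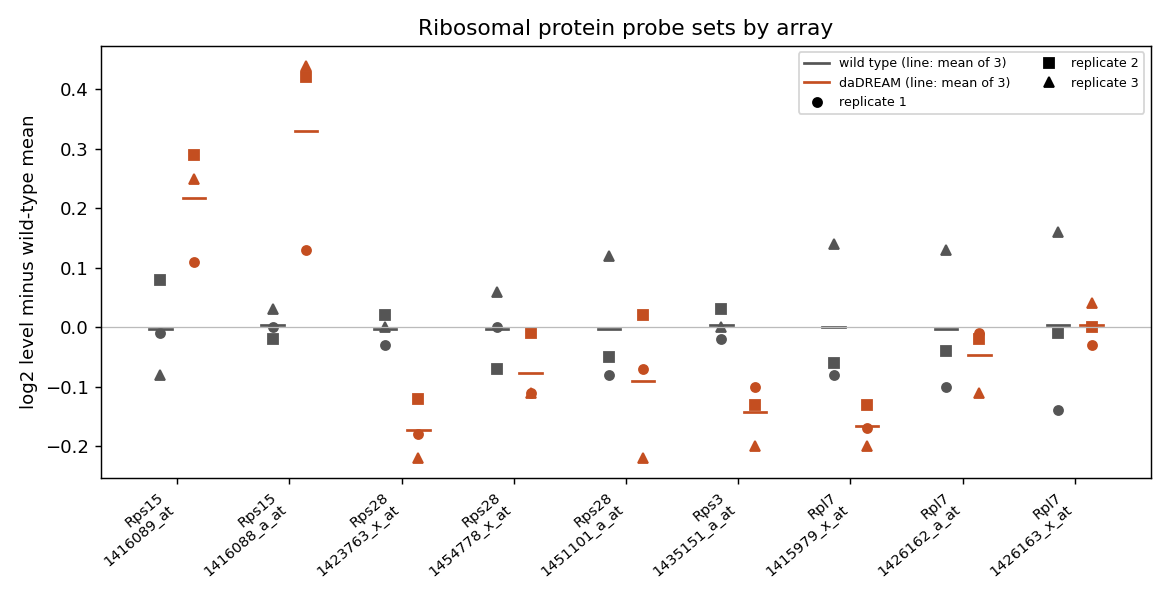
Level of each array minus the wild-type mean (log2) for the probe sets of Rps15, Rps28, Rps3 and Rpl7 with a mean level of at least 8; symbols are single arrays and short lines the means of 3. Both probe sets of Rps15 have every daDREAM array above wild type, whereas 1 of 3 probe sets of Rps28 and of Rpl7 separates the genotypes.

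The largest differences in size came from probe sets with wide spread or low level. Rpl14, of the large subunit, read 5.65, 5.76 and 4.39 in wild type and 4.69, 4.56 and 5.08 in daDREAM. Wild-type replicate 3 was the lowest array of all, so the genotypes overlapped although the difference was -0.49 (95% interval -1.28 to 0.30). Without wild-type replicate 3 it was -0.93 (limma unadjusted p = 0.00163, adjusted p = 0.96). Leaving out wild-type replicate 1 gave -0.30, and leaving out wild-type replicate 2 gave -0.24. Rpl27a read 7.35, 7.05 and 8.71 in wild type and 7.83, 8.04 and 8.05 in daDREAM. Here wild-type replicate 3 was the highest array and the difference was 0.27 (95% interval -0.60 to 1.14). Without that array it was 0.77 (limma unadjusted p = 0.00178, adjusted p = 0.96). Leaving out wild-type replicate 1 gave 0.09, and leaving out wild-type replicate 2 gave -0.06. The range over the 6 arrays was 1.37 for Rpl14 and 1.66 for Rpl27a.

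Rps6, the small-subunit protein phosphorylated by S6 kinases, read 5.44, 5.55 and 4.82 in wild type and 5.04, 4.79 and 4.99 in daDREAM at probe set 1416142_at. Wild-type replicate 3 lay among the daDREAM arrays, and the difference was -0.33 (95% interval -0.79 to 0.13). Without that array it was -0.56 (limma unadjusted p = 0.00598, adjusted p = 0.96), and leaving out wild-type replicate 2 gave -0.19. The other probe set of Rps6, 1453466_at, had a mean of 3.27 over the 6 arrays and differed by 0.00. With both averaged the difference was -0.17. Rps4l, a paralog of Rps4x, read 6.52, 6.74 and 5.82 in wild type and 6.05, 6.37 and 6.50 in daDREAM. The genotypes overlapped, wild-type replicate 3 was again the lowest array, and the difference was -0.05. It was -0.32 without that array and 0.14 without wild-type replicate 2. Rpl12, which forms the base of the stalk that recruits elongation factors, read 4.96, 4.92 and 5.21 in wild type and 5.53, 5.36 and 5.08 in daDREAM, a difference of 0.29 (95% interval -0.06 to 0.65). Its daDREAM replicate 3 lay within the wild-type range, and the difference was 0.42 without that array and 0.19 without daDREAM replicate 1. Rpl37 read 7.53, 7.69 and 7.95 in wild type and 7.83, 7.96 and 8.09 in daDREAM, a difference of 0.24, with overlapping genotypes. Without wild-type replicate 1 it was 0.14.

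Among the other genes with larger differences, Rps2 differed by 0.16 (95% interval -0.13 to 0.45), Rps25 by -0.11 (-0.49 to 0.26) and Rpl10a by -0.14 (-0.46 to 0.18). In Rpl10a daDREAM replicate 3, at 10.69, was lower than the remaining 5 arrays, which read 11.01 to 11.11. The genotypes overlapped in these 3 genes, and each difference moved when 1 array was left out. Without daDREAM replicate 3 the difference was -0.01 for Rpl10a and -0.02 for Rps25. Without daDREAM replicate 2 it was -0.03 for Rps25 and 0.09 for Rps2. Without daDREAM replicate 1 it was -0.22 for Rpl10a and -0.29 for Rps25, and without wild-type replicate 2 it was 0.10 for Rps2 and -0.07 for Rps25.

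Rpl11, Rps19, Rps14 and Rpl38, known for special roles or for human disease, had differences from -0.09 to 0.02. Rps3, which also acts outside the ribosome and is given above, differed by -0.15. Rpl11, which binds Mdm2 when ribosome assembly is disturbed, had means of 11.10 ± 0.07 for wild type and 11.07 ± 0.13 for daDREAM (SD, n = 3) and differed by -0.03 (95% interval -0.31 to 0.25). Rps19 and Rps14, genes tied to Diamond-Blackfan anaemia and to the 5q syndrome, differed by 0.02 (95% interval -0.24 to 0.27) and -0.09 (95% interval -0.43 to 0.25). Rpl38, known for its part in the translation of Hox mRNAs, read 12.11, 12.17 and 12.12 in wild type and 12.10, 12.19 and 12.12 in daDREAM. The 6 arrays spanned 0.09, the genotypes interleaved and the difference was 0.00 (95% interval -0.25 to 0.25). Rps29 stood at 12.50 ± 0.03 and 12.45 ± 0.08, a difference of -0.05.

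Paralogs that can replace a core protein were measured beside their partners. Rpl22 differed by -0.09 and its paralog Rpl22l1 by 0.11, with 95% intervals from -0.36 to 0.18 and from -0.18 to 0.40. Rps27 differed by 0.05 and Rps27l, a gene induced by p53, by -0.03. The 3 probe sets of Rps27l differed by -0.19, -0.03 and 0.16, so their signs disagree. Rps4x, encoded on the X chromosome, differed by 0.01 at its brightest probe set, 1416276_a_at. Its other probe set, 1420303_x_at, read 4.79, 4.56 and 5.05 in wild type and 4.97, 5.33 and 5.50 in daDREAM, a difference of 0.47 with overlapping arrays (95% interval 0.05 to 0.88, limma unadjusted p = 0.0327, adjusted p = 0.998).

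Rpl39 and its testis-enriched paralog Rpl39l differed by -0.07 and 0.12. Rpl39l had a mean of 3.15 in wild type, and Rpl3l, the paralog of striated muscle, one of 3.72, in the lowest part of the scale, where a signal cannot be told from background because the file holds no detection calls. Rpl3l differed by 0.04 with a 95% interval from -0.46 to 0.54. Rpl7l1, a paralog of Rpl7, differed by 0.01 (95% interval -0.45 to 0.48), and Rpl41, the shortest protein of the ribosome, by 0.08. Rps16 had means of 3.13 ± 0.17 for wild type and 3.09 ± 0.06 for daDREAM at its single probe set with 1 symbol.

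Levels of several members depend on the probe set. Of the 46 genes 23 had 1 probe set and 23 had several. In 10 of the latter all probe sets had a difference of the same sign, Rps15, Rps28 and Rpl22 among them. The spread of differences within a gene had a median of 0.18 and reached 0.58 in Rpl13a. There, probe set 1417608_a_at was higher by 0.21 without overlap and 1433928_a_at differed by -0.37 with overlap (limma unadjusted p = 0.0383, adjusted p = 0.998), while the brightest, 1455485_x_at, differed by 0.05. These discordant probe sets give no single direction for Rpl13a.

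Ribosomal protein genes have many processed pseudogenes and near-identical copies, and hybridisation can be shared among them. Of the 101 probe sets 40 carry the suffix x, for probes that may match other sequences, 3 the suffix s, for several genes, 27 the suffix a, for several transcripts of 1 gene, and 31 none of these letters. A further 109 probe sets pair a ribosomal protein symbol with others and were left out of the members. As a group 41 of these 109 were higher, with a median of -0.03 and a range from -0.52 to 0.38. They were looked at after the members' values were known, and the lowest adjusted p among them was 0.998. They hold 27 genes that have no probe set of their own, and 15 of the 46 members as well. A probe set of that mixed kind also exists for 5 of the 7 members with a mean below 6. They are Rpl12, Rpl14, Rps6, Rps16 and Rps27, and each low reading given here is that of a probe set with 1 symbol alone.

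Of the members' probe sets 56 had a mean of at least 10, and 23 of them were higher, with a median difference of -0.02. Over all 1260 probe sets at that level the median was -0.03 and 39.2% were higher. In 20 probe sets with means from 6 to 10, 5 were higher and the median was -0.05, beside 41.2% higher and -0.03 over all. In 25 with means below 6, 16 were higher and the median was 0.05, beside 58.6% higher and 0.03 over all. The signs of the ribosomal protein medians at each level were those of all probe sets at that level.

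**Figure D3:**
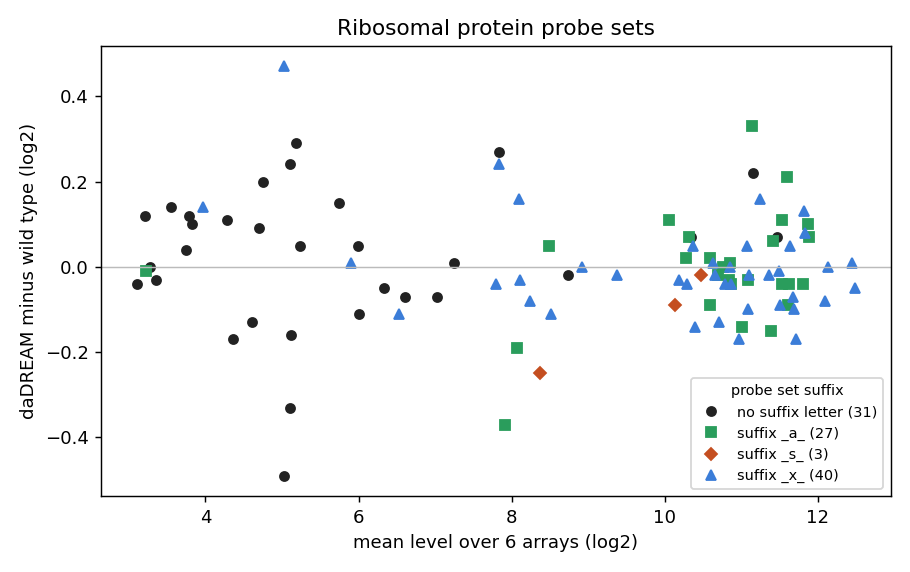
Mean level over the 6 arrays (log2) against the difference between genotypes (daDREAM minus wild type, log2) of the 101 probe sets, by suffix. Differences lie between -0.17 and 0.33 at a level of 10 or more and between -0.49 and 0.47 below 6.

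The spread across arrays was also narrow. The 32 genes with a mean of at least 10 had a median range over the 6 arrays of 0.25 and a largest of 0.51, where all 1260 probe sets at that level had a median range of 0.31. The score of a subunit, the mean deviation of its genes from their own means over 6 arrays, was 0.02, 0.06 and -0.03 in wild type and -0.02, 0.00 and -0.03 in daDREAM for the small subunit. It was -0.03, -0.02 and 0.03 in wild type and 0.00, 0.02 and 0.00 in daDREAM for the large subunit. The genotypes overlapped in both, and wild-type replicate 3 had the highest large-subunit score and, with daDREAM replicate 3, the lowest small-subunit score.

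A single array stood out at the high level, and it did so among all bright probe sets as well as among the members. daDREAM replicate 3 was the lowest array in 13 of the 32 bright genes. This is a smaller share than the 47.3% over all probe sets at that level, so the low readings were not particular to the members. The score of the bright members was -0.05 in that array and -0.02 to 0.03 in the others, and that of all bright probe sets was -0.09 and -0.02 to 0.06. The same array had the narrowest distribution of levels, with an interquartile range of 2.97 beside 3.10 to 3.49 in the others. The part of this width in the members' values was not tested. Without daDREAM replicate 3 the median differences were -0.02 for the small and 0.03 for the large subunit.

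Ribosomal RNA itself is present on the array as control probe sets. The probe set for the 3′ part of 18S rRNA read 8.14, 6.88 and 9.14 in wild type and 9.19, 8.97 and 9.49 in daDREAM. Wild-type replicate 2 was the lowest array and wild-type replicate 3 lay within the daDREAM range. The means were 8.05 ± 1.13 and 9.22 ± 0.26 (n = 3). The middle probe set stood at 6.48 ± 0.81 and 7.42 ± 0.24, and the 5′ probe set at 6.42 ± 1.55 and 7.32 ± 0.28, with overlapping arrays in both. The standard Affymetrix labelling starts from poly(A) tails, which mature ribosomal RNA lacks, so these values do not measure the amount of ribosomes.

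**Figure D4:**
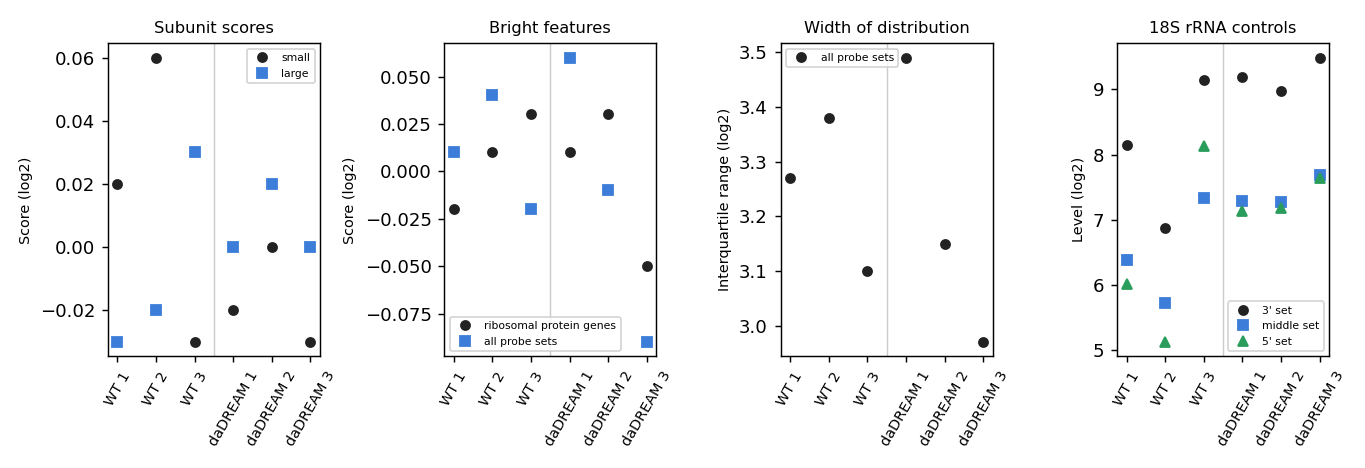
From left to right, for the 6 arrays (WT, wild type): scores of the small- and large-subunit genes, scores of bright ribosomal protein genes and of all bright probe sets, interquartile range of all probe sets, and levels of 3 control probe sets of 18S rRNA, all in log2 units. Subunit scores stay between -0.03 and 0.06, and wild-type replicate 2 has the lowest 18S rRNA readings.

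Further technical measures were read beside these values. Hybridization controls, RNAs added to each sample in fixed amounts, had a mean level of 8.99, 8.99 and 9.48 in wild type and 9.47, 10.14 and 10.47 in daDREAM. The 3′ minus 5′ difference of Gapdh, a sign of RNA integrity, was 0.25, 0.29 and 0.12 in wild type and 0.25, 0.01 and 0.08 in daDREAM. The same difference for Actb was 0.79, 0.79 and 0.78 in wild type and 0.96, 0.58 and 0.63 in daDREAM, where replicate 1 lay above wild type and replicates 2 and 3 below. The part of these measures in the Rps15 difference was not tested.

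The remaining genes of the ribosome and its supply were taken from lists, and 0 of their members passed the limma test. Of 7 ribosome proteins with other names 4 were measured by a probe set of their own. Rplp0 and Rplp2, the acidic proteins of the stalk, differed by -0.06 and -0.10, Rpsa, a small-subunit protein related to the laminin receptor, by -0.06, and Fau, whose product is cleaved to a ubiquitin-like part and a small-subunit protein, by 0.13. All 4 overlapped between genotypes.

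Translation factors and other proteins with pyrimidine-tract mRNAs had 6 of 16 genes higher and a median of -0.01. Eef2, the translocation factor, read 10.89, 10.97 and 10.85 in wild type and 11.04, 11.11 and 11.12 in daDREAM. All daDREAM arrays were above wild type, and the difference was 0.19 (95% interval -0.07 to 0.44). Tpt1, an abundant protein with a pyrimidine-tract mRNA that was named after its values were seen, differed by -0.12, with all daDREAM arrays lower. Eef1a1, which brings aminoacyl-tRNA to the ribosome, read 12.21 to 12.23 in all 6 arrays.

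Of 44 ribosome assembly factors 15 were higher and the median was -0.06, with Rrs1, needed for large-subunit assembly, at -0.45 (95% interval -1.02 to 0.12). RNA polymerase I and its factors had 7 of 12 higher and a median of 0.01, with the terminator Ttf1 at -0.19. Control of pyrimidine-tract mRNAs by mTOR had 9 of 17 higher and a median of 0.04, with Akt1s1, an inhibitor within mTOR complex 1, at 0.24. Importins and escorts of free ribosomal proteins had 3 of 11 higher and a median of -0.07, with Grwd1 at 0.21. Targets of p53 had 6 of 8 higher and a median of 0.11. The array scores of this list were -0.05, -0.03 and -0.05 in wild type and 0.08, 0.03 and 0.02 in daDREAM, without overlap. Sesn2, at 0.20, was the 1 gene of the 8 without overlap, where the background over all genes was 3.55%. Cdkn1a differed by 0.17 and Mdm2 by 0.04, both with overlap. Eda2r differed by 0.19 at a wild-type mean of 3.19, in the lowest part of the scale. Activity of p53 was not tested.

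The scores of the assembly list were 0.04, 0.10 and -0.06 in wild type and 0.15, -0.06 and -0.17 in daDREAM, and those of the escort list 0.02, 0.09 and -0.07 and 0.20, -0.03 and -0.21. In both, daDREAM replicate 1 was the highest array and replicate 3 the lowest, with wild type between them. daDREAM replicate 1 also had the widest distribution of levels, with an interquartile range of 3.49.

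Markers placed the tissue as labelled, with Gabra6 and Cbln1 of granule cells at 12.05 ± 0.02 and 12.19 ± 0.03 in wild type, Pcp2 and Calb1 of Purkinje cells at 12.41 ± 0.03 and 12.27 ± 0.02, and differences from -0.06 to 0.04 in these 4. In bulk tissue, fewer cells of a type and less RNA per cell cannot be told apart. Of 8 choroid plexus markers all 8 were higher, 5 without overlap where the background over all genes was 3.55%, with a median of 0.43 and array scores of -0.44 to -0.12 in wild type and 0.14 to 0.38 in daDREAM. Meningeal fibroblast markers had 9 of 10 higher, 4 without overlap, with a median of 0.09 and scores of -0.09 to -0.06 in wild type and 0.07 to 0.09 in daDREAM. The 4 without overlap were Igfbp2, Igf2, Slc6a13 and Slc22a6, with differences of 0.58, 0.32, 0.24 and 0.19. Dcn, Lum, Col1a1, Col1a2, Ptgds and Aldh1a2 overlapped between genotypes, with differences from -0.03 to 0.12. Microglial markers had 8 of 9 higher, 1 without overlap, with a median of 0.17 and scores of -0.13 to -0.04 in wild type and 0.04 to 0.13 in daDREAM, so the scores of all 3 lists were apart. Granule cell markers had 3 of 9 higher and Purkinje cell markers 2 of 8, with medians of -0.04 and -0.02. The largest differences in these lists were 0.28 in Barhl1 of granule cells and -0.18 in Ppp1r17 of Purkinje cells, both with overlap. Oligodendrocyte markers had 2 of 9 higher and a median of -0.03, and Bergmann glia and astrocyte markers 4 of 10 and -0.06. Endothelial markers had 4 of 9 higher, blood markers 3 of 6, forebrain markers 4 of 6 and brainstem markers 1 of 7, with medians of -0.01, 0.03, 0.03 and -0.07. The part of these cell types in the ribosomal protein values was not tested.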

How the data were processed

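Per the submitters' processing notes, the authors made the deposited log2 values with RMA in the affy package, which corrects background, equalises probe intensities across arrays and gives 1 value per probe set. No source used here states the versions. The values carry 2 decimals and no detection call. RMA hides a shift shared by most probe sets.

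After removal of 64 control probe sets, the other 45037 were fitted with limma 3.58.1 in R 4.3.3 (2-sided, equal array weights, Benjamini-Hochberg adjustment over all of them, threshold 0.05, intervals at 95%). The 3 arrays per genotype limit the precision: the median half-width of a member gene's interval was 0.28. The fit was also run on simulated noise, independent between probe sets, with added differences of known size. That run held no shifts shared across an array, so it does not show how the fit handles them.

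The members and lists were chosen with earlier results of these data known. Genes named are those without overlap, the 6 largest differences per subunit, the brightest and dimmest gene per subunit, the 4 largest ranges, a fixed set of genes with known roles, and the leading gene of each pathway list. Tpt1, Rpl13a, Cdkn1a, Mdm2, Eda2r and Eef1a1, and the single meningeal fibroblast genes, were added after their values were seen. The measured ribosome proteins with other names were all named. Gabra6, Cbln1, Pcp2 and Calb1 were named outside these rules to place the tissue, and Barhl1 and Ppp1r17 as leading genes of their marker lists. Symbols of all 46 genes were found in the RefSeq table of GRCm38.p6. Alternatives were the replicate number as a block, a trended and robust prior, median centring of arrays, a second quantile normalization, a mean level of at least 6, each array left out, the mean of a gene's probe sets, and probe sets without suffix letters.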

Additional observations from a re-analysis of the deposited data

How the results depend on the processing

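Of the 45037 probe sets 0 passed the adjusted threshold with limma in each alternative run on probe sets, against 817 at an unadjusted p under 0.05 in the reported fit. The number of ribosomal protein probe sets at an unadjusted p under 0.05 was 3 as reported, 6 with the trended and robust prior, where 1.77% of all probe sets lay under that level, 0 of the 31 probe sets without suffix letters, and 0 to 7 when 1 array was left out, the 7 without daDREAM replicate 1, where the share over all was 16.1%. It was 6 without wild-type replicate 3, where the share over all was 2.78%, 1 without daDREAM replicate 3 and 0 without wild-type replicate 1, wild-type replicate 2 or daDREAM replicate 2. After median centring 4 small-subunit genes were higher in place of 7. With probe sets without suffix letters, which cover 12 genes of each subunit, the medians were 0.01 for the small and 0.07 for the large subunit, and 9 large-subunit genes were higher; fewer genes are measured there. Same-numbered arrays of the genotypes correlated in their deviations at 0.119, -0.281 and 0.323. With 3 arrays per genotype these values cannot decide whether the numbers pair the samples. With the replicate number as a block the medians were -0.04 and 0.02, with 3 probe sets at an unadjusted limma p under 0.05. In the reported fit the 95% interval of every named gene at its brightest probe set included 0, so a change of sign was not counted as a reversal; when 1 array was left out, 2 to 6 of the 29 named genes changed sign. The unadjusted limma p was under 0.05 for Rps15 (0.0292) and Rps28 (0.0337) with the trended and robust prior, both at an adjusted p of 0.998, for Rps15 (0.0298, adjusted p = 0.998) with the probe sets of a gene averaged, and for Rpl14, Rpl27a, Rps6 and Rpl37 (0.00163 to 0.0455) without wild-type replicate 3, all at 0.96. Likewise Rpl12 stood at 0.0223 without daDREAM replicate 3 (adjusted p = 1.0) and Rps25 at 0.0404 without daDREAM replicate 1 (adjusted p = 0.291). With the probe sets of a gene averaged, the difference was -0.04 for Rps3, -0.07 for Rpl7 and -0.11 for Rps28. At the brightest probe set these were -0.15, -0.17 and -0.17. For Rps15 the averaged difference was 0.27 in place of 0.22, and for Rps4x 0.24 in place of 0.01. Depth of signal limits the 7 genes with means below 6.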
